A study of Mus musculus with 8 samples.

Results

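Notch is a receptor system in which a membrane ligand on one cell, of the Jagged or Delta-like type, pulls on a receptor of the neighbouring cell until a gamma-secretase complex frees the intracellular domain. That domain enters the nucleus, joins the DNA-binding protein RBPJ and a Mastermind-like co-activator, and switches on target genes, most of all the HES and HEY repressors. In the mammary gland Notch signalling is known for its part in the choice between luminal and basal fate, and in blood vessels it shapes the endothelium and its pericytes. The genes described here are 37 members of the pathway, given as a list of receptors, ligands, ligand endocytosis factors, glycosyltransferases, gamma-secretase subunits, nuclear partners, modulators and HES or HEY factors. Each member was taken from the probe sets whose sole gene symbol in the array annotation was that member, and the probe set with the highest mean was used. All 37 of the 37 listed genes were found among 19935 gene symbols and 34760 probe sets.

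Unsorted mammary cells of 4 pools of parous and 4 pools of age-matched virgin FVB/NHanHsd mice were hybridised to 1 Affymetrix Mouse Gene 1.0 ST array each, to see how an early pregnancy changes the gland. Each array held RNA of the 4th mammary glands of 5 mice, so that a replicate was a pool. The parous mice were mated at 42 days of age, lactated for 21 days and, by the labels, had 28 days of involution, for which the study's methods give a longer period. In both groups the lymph nodes, adipocytes and red blood cells had been removed and the fibroblasts thinned out on plastic. The estrous stage of each pool was not given, but the study grouped at least 5 mice per harvest to control for the cycle. In such a mixed suspension, fewer cells of a type and less RNA per cell cannot be told apart. Values are log2 RMA values (robust multi-array average), and a fold change is parous minus virgin on that scale.

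The labels call the samples mammary epithelial cells, and the luminal and basal marker lists had means of 12.21 to 12.34 in parous and 12.40 to 12.59 in virgin arrays for the 5 luminal markers and 10.45 to 10.64 in parous and 10.76 to 11.06 in virgin arrays for the 9 basal markers. Other cells were present too. The mean of 12 endothelial markers ran between 10.65 and 11.20 in parous and between 10.20 and 11.20 in virgin arrays, and no endothelial marker lay below the array median on all arrays. Of the 4 adipocyte markers, 2 (Adipoq and Lep) lay below the array median on all 8 arrays. All 5 measured hormone-sensing markers had fold changes below 0, with list means of 8.29 to 8.78 in parous and 9.15 to 9.72 in virgin arrays. Virgin replicates 2 and 4 stood apart in the 11 measured proliferation genes, with list means of 8.44 and 8.98, against 6.13 to 6.52 in the parous arrays and 6.86 and 6.82 in virgin replicates 1 and 3. Parous replicate 1 and virgin replicate 3 stood apart in the 5 measured B cell markers, with list means of 8.56 and 9.09, against 6.45 to 7.65 on the other arrays.

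No member of the pathway was called higher or lower in parous glands. The call needed a linear fold change over 1.5, a Benjamini-Hochberg adjusted p under 0.05 over all probe sets in limma and a mean log2 value over 2, and 0 of 37 members met it, where 0.397% of all probe sets did. The count at an adjusted p under 0.05 with no limit on fold change was also 0, where the share of all probe sets was 0.42%. At an unadjusted p under 0.05 there were 6 members, or 16.2%, against 14% of all genes. Rbpj, Maml2, Numbl, Hey1 and Hey2 were the 5 with higher values in parous arrays, where 6.54% of all genes were so placed, and Dtx4 was the 1 with lower values, where 7.49% of all genes were. In 5 members the 4 parous arrays did not overlap the 4 virgin arrays, which is 13.5% of the members against 9.56% of all genes. All 5 (Rbpj, Maml2, Numbl, Itch and Hey2) lay higher in parous arrays, a placing found for 4.61% of all genes, while 4.95% of all genes lay lower without overlap. Below the array median on all arrays were 7172 of the 19935 genes, against 1 of 37 members. The shares of all genes, here and below, were not matched for signal level.

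The fold changes of the members were small. Their median was 0.10, against 0.0024 for all genes, and 25 of 37 (67.6%) were above 0, against 50.7% of all genes. The median size of the change regardless of sign was 0.11 for the members and 0.105 for all genes. Of the 37 members, 3 (Hey2, Hey1 and Dtx4) differed on average by more than 1.5-fold, which is 8.11% of the members against 4.34% of all genes. For 22 members (59.5%) the 95% confidence interval stayed within 1.5-fold in both directions, against 80.8% of all genes, so for the other 15 the interval reached beyond 1.5-fold in at least 1 direction. Without virgin replicates 2 and 4 the median of the members was 0.0041, and 19 of 37 members were above 0. The share of all genes above 0 was not counted in that fit. Those 2 arrays stood apart in the proliferation genes of these same data. They were also the 2 lowest virgin arrays for Hey2, Hey1, Maml2 and Numbl and the 2 highest for Dtx4. For such genes, leaving both arrays out could only move the fold change towards or past 0.

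**Figure D1:**
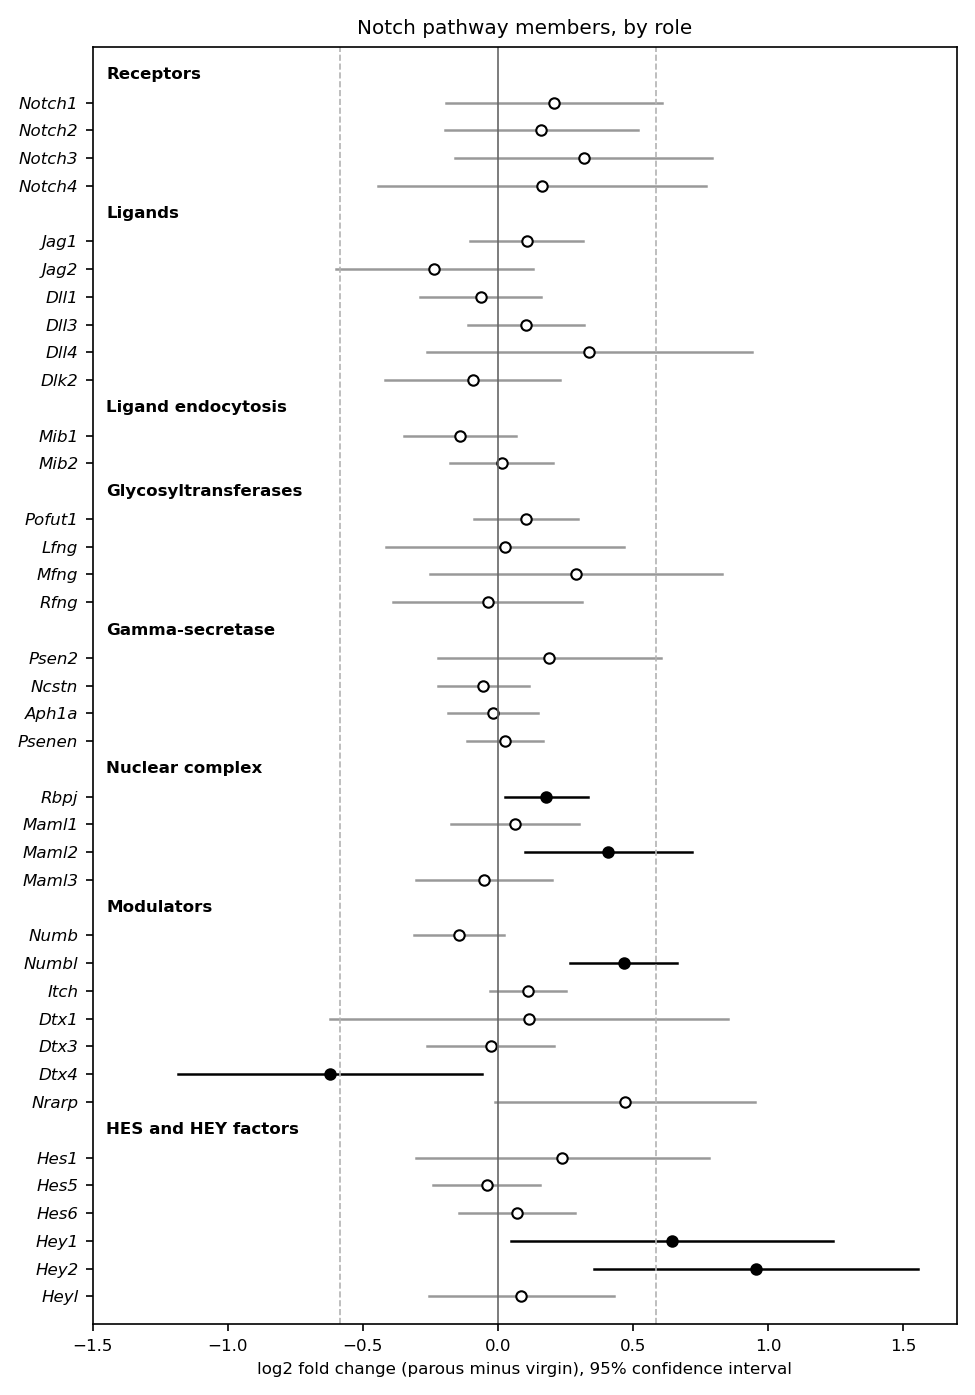
Log2 fold change of the 37 members, parous minus virgin, by role, from limma on 4 parous and 4 virgin arrays. Lines are 95% confidence intervals, filled points have an unadjusted p under 0.05, and dashed lines mark a fold change of 1.5. Hey2 at 0.95 and Dtx4 at -0.62 are the ends of the range.

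More members had their lowest value in virgin replicate 4 than in any other array. It held the lowest of the 8 values for 19 members (51.4%), against 20.9% of all genes, and these included all 4 receptors, 4 of the 6 HES and HEY factors, 3 of the 4 glycosyltransferases and 3 of the 4 nuclear partners. Of the 6 ligands and of the 7 modulators, 1 each had its lowest value there. Virgin replicate 4 was also the highest array for 4 members (10.8%), against 21.5% of all genes. With array weights it had the lowest weight of all arrays, 0.42. Parous replicate 4 was lowest for 7 members and virgin replicate 2 for 6, while parous replicate 3 and virgin replicate 3 were lowest for none. The SD over the 4 arrays was larger in virgin than in parous glands for 27 members (73%), against 58.8% of all genes.

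**Figure D2:**
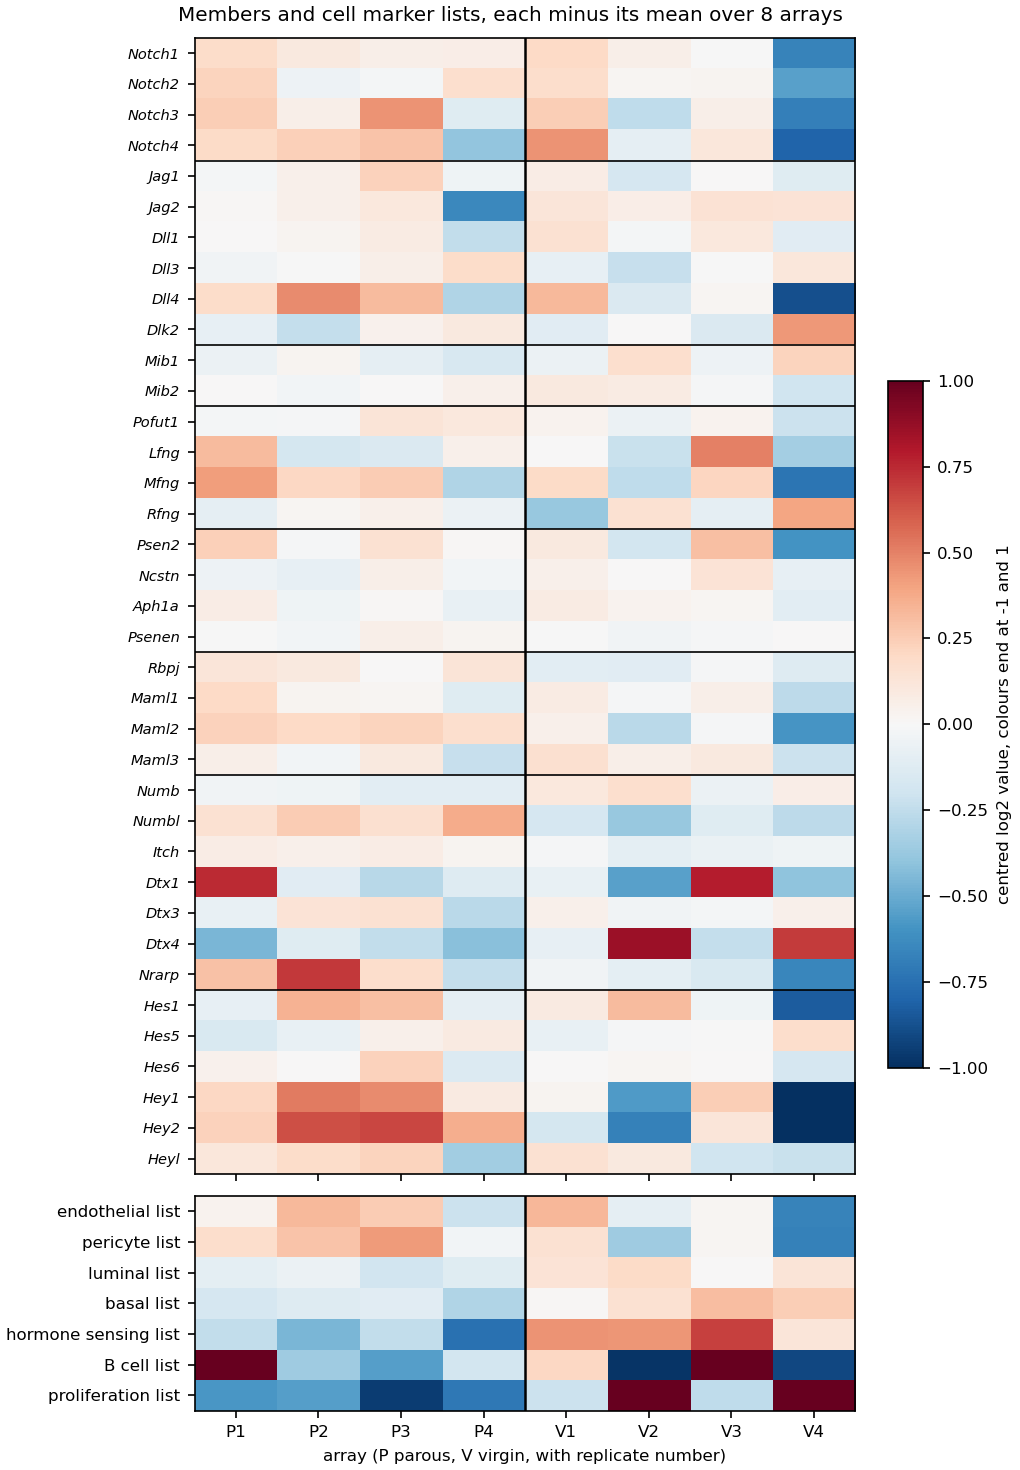
Each of the 37 members (upper block, roles separated by lines in the order receptors, ligands, ligand endocytosis, glycosyltransferases, gamma-secretase, nuclear partners, modulators, HES and HEY factors) and the mean of 7 cell marker lists (lower block), minus its own mean over the 8 arrays, on the log2 scale. Columns P1 to P4 are parous and V1 to V4 virgin arrays, and the column of V4 is the lowest for 19 members.

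The RBPJ protein binds DNA at sites with the core TGGGAA. The letters TGGGAA or, on the other strand, TTCCCA were looked for in RefSeq promoter windows of the GRCm38.p6 build, from 250 bases before to 50 bases after a start. They stood in 10 of 39 windows of the members (25.6%), which belonged to 9 of the 29 members with a window, and in 25.6% of all 32851 windows. A match is a description of the letters and not a binding site. The windows below are shown from 250 bases before to 10 bases after the start, 5′ to 3′ on the strand of the gene, with the matches in capitals. Hey2 is shown as the member with the largest fold change, Hes5 as a classical target with a fold change near 0, Rbpj as the DNA-binding partner itself and Numbl as the member with the smallest p.
Hey2 (chr10:30842774-30843033, minus strand): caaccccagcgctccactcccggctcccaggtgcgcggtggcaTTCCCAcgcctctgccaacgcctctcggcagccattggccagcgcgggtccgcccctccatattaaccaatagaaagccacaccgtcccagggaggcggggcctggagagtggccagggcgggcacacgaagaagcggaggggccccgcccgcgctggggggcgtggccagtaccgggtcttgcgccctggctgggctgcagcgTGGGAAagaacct
Hes5 (chr4:154960673-154960932, plus strand): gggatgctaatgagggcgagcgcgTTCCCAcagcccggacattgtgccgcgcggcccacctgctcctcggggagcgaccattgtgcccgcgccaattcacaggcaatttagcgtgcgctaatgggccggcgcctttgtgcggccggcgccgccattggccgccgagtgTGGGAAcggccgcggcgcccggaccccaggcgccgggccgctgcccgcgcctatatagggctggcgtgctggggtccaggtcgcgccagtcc
Rbpj, the first of its starts (chr5:53590096-53590355, plus strand): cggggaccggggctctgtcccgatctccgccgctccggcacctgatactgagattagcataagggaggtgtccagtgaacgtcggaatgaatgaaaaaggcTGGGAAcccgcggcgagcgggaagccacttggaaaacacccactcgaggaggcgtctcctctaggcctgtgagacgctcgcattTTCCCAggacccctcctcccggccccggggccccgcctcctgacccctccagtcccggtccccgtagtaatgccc
Numbl (chr7:27258511-27258770, plus strand): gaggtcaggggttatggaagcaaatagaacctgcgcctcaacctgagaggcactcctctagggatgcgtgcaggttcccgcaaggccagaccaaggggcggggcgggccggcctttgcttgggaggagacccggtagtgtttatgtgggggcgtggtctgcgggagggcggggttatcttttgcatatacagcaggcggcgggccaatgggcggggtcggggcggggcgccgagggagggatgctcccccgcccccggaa
In Hey2 the matches began at positions -207 and -3 from the start, the second running across it. In Hes5 they began at -226 and -82, and in the shown window of Rbpj at -149 and -65. The shown window of Numbl held none.

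Among the HES and HEY factors, Hey2 and Hey1 had the largest fold changes of all members regardless of sign, while Hes1, Hes5, Hes6 and Heyl had smaller ones. Hey2, a repressor known from artery and heart development, had log2 values of 8.68, 9.10, 9.12 and 8.82 in parous replicates 1 to 4, against 8.28, 7.77, 8.57 and 7.28 in virgin replicates 1 to 4. Every parous array was above every virgin array, and virgin replicates 4 and 2 were the lowest. Its mean was 8.93 ± 0.22 in parous and 7.97 ± 0.57 in virgin glands (SD, n = 4 each), a fold change of 0.95 (SE 0.26, 95% confidence interval 0.35 to 1.55) or 1.94-fold higher. The adjusted p of limma was 0.22 and the exact 2-sided permutation p was 0.029, the smallest that 4 against 4 arrays allow. Without virgin replicate 4 the fold change of Hey2 was 0.72, and without virgin replicates 2 and 4 it was 0.50 (adjusted p = 0.48 in limma), still without overlap.

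Hey1, the close relative of Hey2 that shares its vascular role, had 10.13, 10.44, 10.39 and 10.01 in parous replicates 1 to 4, against 9.95, 9.36, 10.17 and 8.92 in virgin replicates 1 to 4. The groups overlapped, because virgin replicate 3 was above parous replicates 1 and 4, and virgin replicates 4 and 2 were the lowest. The means were 10.24 ± 0.21 in parous and 9.60 ± 0.57 in virgin glands, a fold change of 0.64 (SE 0.26, 95% confidence interval 0.049 to 1.24), with an adjusted p of 0.40 in limma and an exact permutation p of 0.086. Without virgin replicates 2 and 4 its fold change was 0.18 (adjusted p = 0.89 in limma). Hes1, the most widely used Notch target, had 10.29, 10.72, 10.67 and 10.29 in parous and 10.46, 10.69, 10.33 and 9.54 in virgin replicates 1 to 4, with a fold change of 0.24 (SE 0.24) and an adjusted p of 0.78 in limma. Apart from the low virgin replicate 4, the values of Hes1 in the groups lay in the same range, and its fold change was 0.0011 without that array and 0.099 without virgin replicates 2 and 4. Hes5, Hes6, which counters HES1, and Heyl, a target in smooth muscle, had fold changes of -0.04, 0.07 and 0.09, all with 95% confidence intervals within 1.5-fold.

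**Figure D3:**
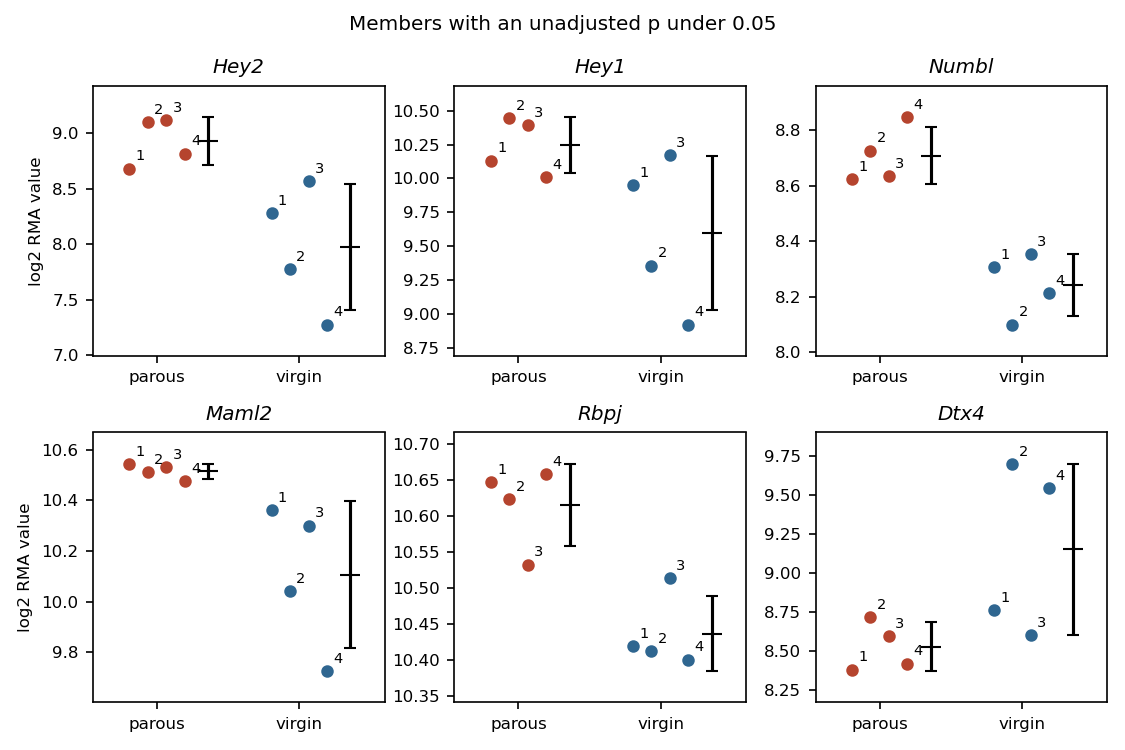
Log2 RMA values of the 6 members with an unadjusted p under 0.05 on each array, parous left and virgin right, with the replicate number beside each point and the mean ± SD (n = 4) as a bar. The groups overlap in Hey1 and Dtx4 and do not in Hey2, Numbl, Maml2 and Rbpj, and each panel has its own axis.

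Hey1 and Hey2 shared their lowest array, virgin replicate 4, with Dll4 and Notch4, members that blood vessels use, but the order of the other arrays differed. Dll4, the ligand of the arterial endothelium, had 9.60, 9.90, 9.74 and 9.12 in parous replicates 1 to 4, against 9.75, 9.28, 9.44 and 8.54 in virgin replicates 1 to 4. Its fold change of 0.34 (SE 0.26) had an adjusted p of 0.69 in limma, and it was -0.0022 without virgin replicates 2 and 4. Notch4, the receptor best known from endothelium, ran between 7.85 and 8.53 in parous and between 7.44 and 8.69 in virgin arrays, with its lowest values in replicate 4 of both groups. The same arrays were the lowest of their groups in the endothelial list, with means of 10.65 in parous replicate 4 and 10.20 in virgin replicate 4. The pericyte list of 7 genes ran between 9.64 and 10.10 in parous and between 9.00 and 9.83 in virgin arrays, and was lowest in virgin replicates 4 and 2.

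All 12 endothelial and all 7 pericyte markers had fold changes above 0, with medians of 0.19 and 0.41, and none met the call. The endothelial mean was 11.20 and 10.89 in virgin replicates 1 and 3, against 10.78 and 10.20 in virgin replicates 2 and 4. For the pericyte mean these were 9.83 and 9.69, inside the parous range, against 9.32 and 9.00. Neither list was compared between the groups without virgin replicates 2 and 4. With each array scaled to the mean of the endothelial list, the fold change was 0.76 for Hey2 (adjusted p = 0.68 in limma), 0.45 for Hey1, 0.14 for Dll4 and -0.036 for Notch4. With each array scaled to the pericyte list it was 0.53 for Hey2 (adjusted p = 0.23), 0.22 for Hey1, -0.089 for Dll4 and -0.27 for Notch4. Both scalings were chosen after the data were seen.

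**Figure D4:**
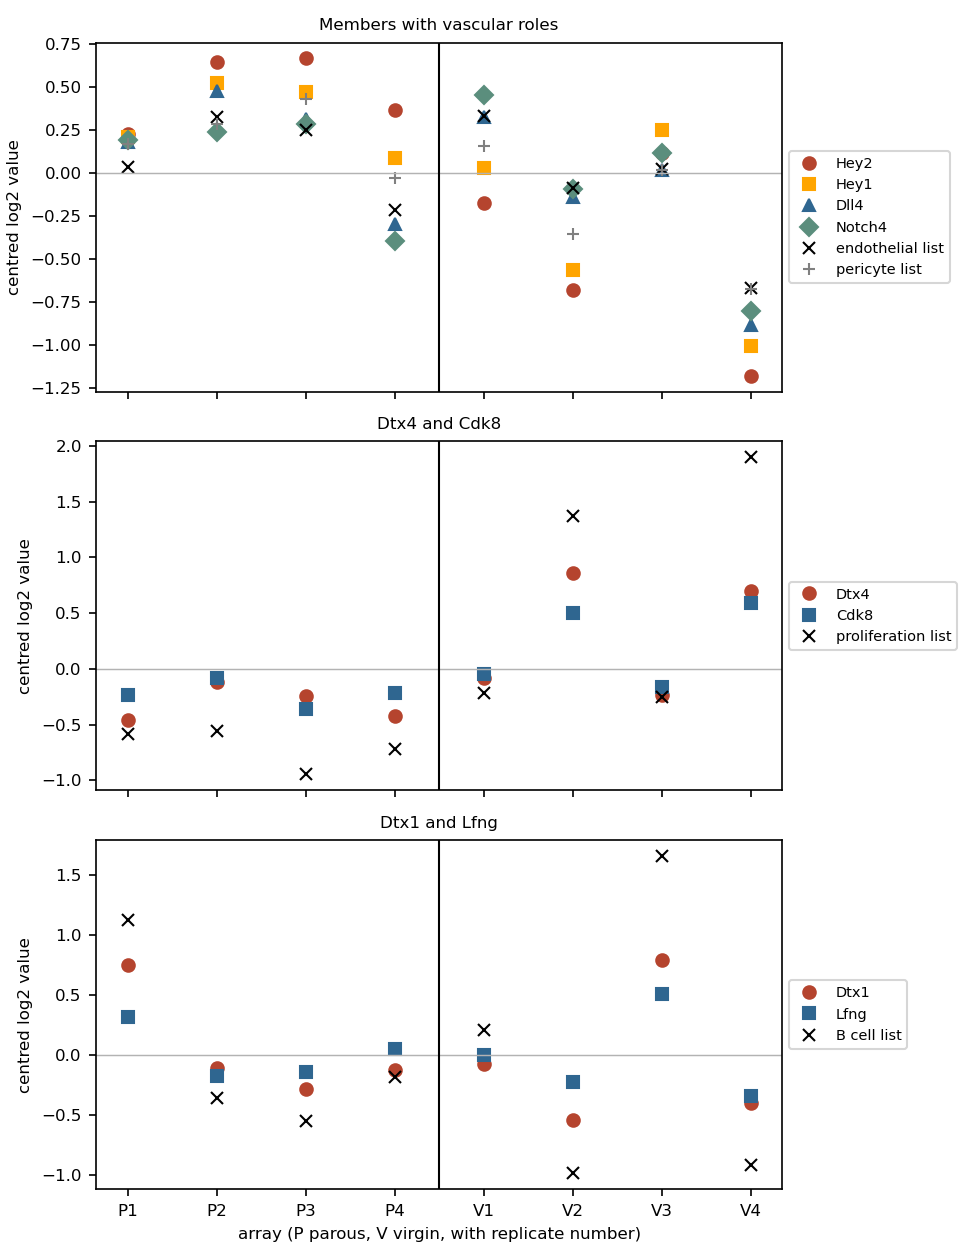
Log2 values of members and means of marker lists on each array, minus their mean over the 8 arrays, for parous arrays P1 to P4 left and virgin arrays V1 to V4 right. The upper panel shows Hey2, Hey1, Dll4 and Notch4 with the endothelial and pericyte lists, all lowest in V4. The middle panel shows Dtx4 and Cdk8 with the proliferation list, all highest in V2 or V4, and the lower panel shows Dtx1 and Lfng with the B cell list, all highest in P1 and V3.

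None of the 4 receptors differed by more than the spread between arrays. Notch1 had 11.34, 11.24, 11.21 and 11.22 in parous replicates 1 to 4, against 11.35, 11.21, 11.14 and 10.48 in virgin replicates 1 to 4. Virgin replicate 4 alone was apart, and the fold change was 0.21 (SE 0.18, adjusted p = 0.72 in limma) with all arrays and 0.0041 without virgin replicates 2 and 4. Notch3, the receptor of pericytes and vascular smooth muscle, had 10.11, 9.93, 10.32 and 9.74 in parous and 10.11, 9.61, 9.93 and 9.18 in virgin replicates 1 to 4, a fold change of 0.32 (SE 0.21, adjusted p = 0.63 in limma). It was 0.0069 without virgin replicates 2 and 4, and -0.11 with each array scaled to the pericyte list. Notch2 and Notch4 had fold changes of 0.16 each, which were -0.021 and -0.20 without virgin replicates 2 and 4. With all 8 arrays the fold changes of all 4 receptors were above 0, and without virgin replicates 2 and 4 those of 2 receptors were.

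Among the ligands the fold changes lay on both sides of 0. Jag1, a ligand of luminal, basal and vascular cells, had 10.26, 10.33, 10.51 and 10.24 in parous replicates 1 to 4, against 10.36, 10.11, 10.29 and 10.16 in virgin replicates 1 to 4, with a fold change of 0.11 (SE 0.092, adjusted p = 0.73 in limma). Jag2, the second Jagged ligand, had 8.91, 8.95, 9.01 and 8.26 in parous and 9.02, 8.97, 9.04 and 9.04 in virgin replicates 1 to 4. The virgin arrays lay close together and parous replicate 4 stood far below the other parous arrays. The fold change of -0.24 (SE 0.16, 95% confidence interval -0.60 to 0.13) had an adjusted p of 0.64 in limma and an exact permutation p of 0.057, and it was -0.061 without parous replicate 4. Dll1 (-0.06), Dll3 (0.10) and the Delta-like membrane protein Dlk2 (-0.09) had intervals within 1.5-fold, and Dll3, at 4.80 to 5.22, was the 1 member below the array median on all arrays.

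The enzymes that prepare ligands and receptors had fold changes between -0.14 and 0.29. Mib1, the ubiquitin ligase that lets ligands be pulled into the sending cell, had 8.86, 8.95, 8.84 and 8.77 in parous replicates 1 to 4, against 8.87, 9.10, 8.87 and 9.15 in virgin replicates 1 to 4, with virgin replicates 2 and 4 above the rest. Its fold change was -0.14 (SE 0.091, adjusted p = 0.63 in limma) with all arrays and -0.015 without virgin replicates 2 and 4, and that of its relative Mib2 was 0.01 with all arrays. Lfng, a fringe that adds a sugar to the receptor and so tunes which ligand it answers, had 10.05, 9.56, 9.59 and 9.78 in parous and 9.73, 9.51, 10.24 and 9.39 in virgin replicates 1 to 4, a fold change of 0.03 (SE 0.19). The highest values of Lfng were those of virgin replicate 3 and parous replicate 1, the arrays with the highest B cell and T cell markers. Mfng, a fringe known from blood and endothelial cells, had 8.71, 8.50, 8.55 and 7.99 in parous and 8.49, 8.04, 8.51 and 7.56 in virgin replicates 1 to 4, a fold change of 0.29 (SE 0.24, adjusted p = 0.71 in limma). Replicate 4 was the lowest of both groups, as in the endothelial list. Pofut1, which adds the fucose that fringes extend, had 0.10, and the fringe Rfng had -0.04.

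The gamma-secretase subunits had the smallest fold changes of the 8 roles, with a median size of 0.04. Psenen, the smallest subunit, had 12.45, 12.42, 12.51 and 12.47 in parous replicates 1 to 4, against 12.45, 12.41, 12.43 and 12.45 in virgin replicates 1 to 4, a fold change of 0.03 (SE 0.061). Psen2, a catalytic subunit, had 8.67, 8.42, 8.59 and 8.44 in parous and 8.54, 8.25, 8.74 and 7.84 in virgin replicates 1 to 4, a fold change of 0.19 (SE 0.18, adjusted p = 0.76 in limma) that was -0.11 without virgin replicates 2 and 4. Virgin replicate 4 was the lowest array for Psen2, and the other arrays overlapped. Ncstn and Aph1a, which assemble the complex, had fold changes of -0.05 and -0.02.

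Of the nuclear partners, Rbpj and Maml2 lay higher in every parous array. Rbpj, the DNA-binding partner of the receptor domain, had 10.65, 10.62, 10.53 and 10.66 in parous replicates 1 to 4, against 10.42, 10.41, 10.51 and 10.40 in virgin replicates 1 to 4. The gap between the groups was narrow, between parous replicate 3 and virgin replicate 3. The fold change of 0.18 (SE 0.067, 95% confidence interval 0.026 to 0.33) had an adjusted p of 0.36 in limma and an exact permutation p of 0.029, and with each array centred on its median the groups overlapped. It was 0.15 without virgin replicates 2 and 4. A second Rbpj probe set, below the array median on all arrays, had a fold change of 0.16, and its groups overlapped. Maml2, a Mastermind-like co-activator, had 10.54, 10.51, 10.53 and 10.48 in parous and 10.36, 10.04, 10.30 and 9.72 in virgin replicates 1 to 4. The parous arrays lay within a few hundredths of each other while virgin replicates 4 and 2 were low. The means were 10.52 ± 0.029 in parous and 10.11 ± 0.29 in virgin glands, a fold change of 0.41 (SE 0.14, 95% confidence interval 0.099 to 0.72) or 1.33-fold higher, with an adjusted p of 0.31 in limma and an exact permutation p of 0.029. It was 0.28 without virgin replicate 4 and 0.19 without virgin replicates 2 and 4 (adjusted p = 0.66 in limma). A second Maml2 probe set had a fold change of 0.25 (adjusted p = 0.33 in limma), also without overlap. Maml1 and Maml3, the sister co-activators, had fold changes of 0.06 and -0.05.

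The modulators held both the smallest p of the members and the largest lower value. Numbl, an endocytic adaptor related to the Notch antagonist Numb, had 8.62, 8.73, 8.64 and 8.85 in parous replicates 1 to 4, against 8.31, 8.10, 8.35 and 8.21 in virgin replicates 1 to 4. The groups were well separated, and virgin replicates 2 and 4 were the lowest. The means were 8.71 ± 0.10 in parous and 8.24 ± 0.11 in virgin glands, a fold change of 0.47 (SE 0.087, 95% confidence interval 0.27 to 0.66) or 1.38-fold higher. Its adjusted p of 0.085 in limma missed the threshold, with an exact permutation p of 0.029. Leaving out any 1 array kept the fold change between 0.42 and 0.50, and without virgin replicates 2 and 4 it was 0.38 (adjusted p = 0.33 in limma). Numb itself had a fold change of -0.14 (SE 0.073, adjusted p = 0.51 in limma).

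Dtx4, a Deltex ubiquitin ligase, had 8.38, 8.72, 8.59 and 8.42 in parous replicates 1 to 4, against 8.76, 9.70, 8.60 and 9.54 in virgin replicates 1 to 4. Virgin replicates 2 and 4 were far above all other arrays, and virgin replicate 3 lay within the parous range. The fold change of -0.62 (SE 0.25, 95% confidence interval -1.19 to -0.058) or 1.54-fold lower had an adjusted p of 0.39 in limma and an exact permutation p of 0.057. Without virgin replicates 2 and 4, the arrays with high proliferation genes, it was -0.15 (adjusted p = 0.89 in limma). Dtx1, a Deltex known as a Notch target in lymphocytes, ran between 7.63 and 8.65 in parous and between 7.36 and 8.69 in virgin arrays. Its highest values were those of virgin replicate 3 and parous replicate 1, the arrays with the highest B cell markers, and its fold change was 0.11 (SE 0.32). The part of the proliferating cells and of the lymphocytes in these values was not tested.

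Nrarp, a Notch target that damps the nuclear complex, had a fold change of 0.47 (SE 0.21, adjusted p = 0.45 in limma). It ran between 8.79 and 9.74 in parous and between 8.38 and 9.00 in virgin arrays, with parous replicate 4 inside the virgin range. Itch, a ubiquitin ligase that sends Notch for degradation, had 10.16, 10.13, 10.15 and 10.11 in parous and 10.07, 9.98, 10.01 and 10.04 in virgin replicates 1 to 4. The groups did not overlap, though the fold change was only 0.11 (SE 0.062, 95% confidence interval -0.030 to 0.25, adjusted p = 0.56 in limma, exact permutation p = 0.029), and with each array centred on its median they did overlap. Dtx3 had a fold change of -0.03.

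**Figure D5:**
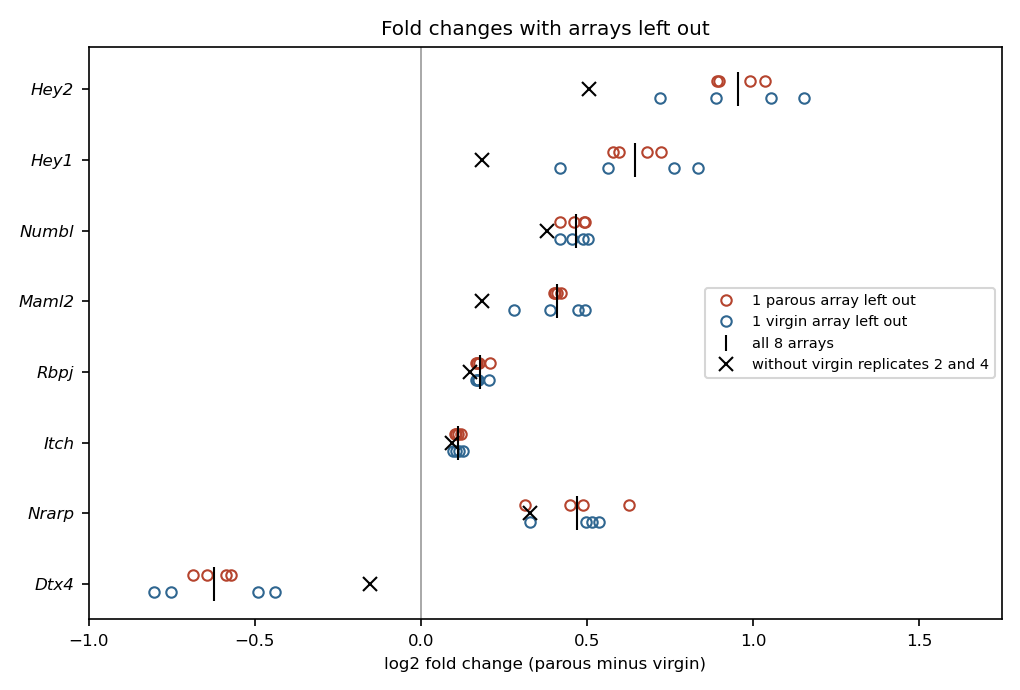
Log2 fold change (parous minus virgin) of 8 members, with all 8 arrays (vertical mark), with 1 parous or 1 virgin array left out (open circles) and without virgin replicates 2 and 4 (cross). Numbl stays between 0.42 and 0.50 with 1 array left out, while Hey1 is at 0.18 and Dtx4 at -0.15 without virgin replicates 2 and 4.

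Of 35 further genes of the pathway, 31 were analysed here, and none met the call. Their median fold change was -0.02, and 5 (16.1%) had an unadjusted p under 0.05, against 14% of all genes. The groups did not overlap in 5 of the 31 (16.1%), against 9.56% of all genes. Of these, 1 was higher and 4 were lower in parous glands, against 4.61% and 4.95% of all genes. The 5 with an unadjusted p under 0.05 are named here after their values were seen. Adam10, the protease that makes the first cut in a receptor that has met its ligand, had 10.20, 10.22, 10.41 and 10.14 in parous replicates 1 to 4, against 10.73, 10.69, 10.72 and 10.51 in virgin replicates 1 to 4. The groups did not overlap, and the fold change was -0.42 (SE 0.088, adjusted p = 0.12 in limma) with all arrays and -0.48 without virgin replicates 2 and 4. Hdac1, a histone deacetylase of many repressor complexes including that of RBPJ, had a fold change of -0.25 (adjusted p = 0.18 in limma), again without overlap. A second Hdac1 probe set had -0.40 (adjusted p = 0.095 in limma), also without overlap.

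Cdk8 and its cyclin Ccnc, which mark the receptor domain for degradation, were lower in parous arrays on average. Cdk8 had 9.34, 9.49, 9.22 and 9.36 in parous replicates 1 to 4, against 9.53, 10.08, 9.42 and 10.17 in virgin replicates 1 to 4. Virgin replicates 4 and 2 were the highest, as in Dtx4, and the groups overlapped. The fold change of Cdk8 was -0.44 (SE 0.18, adjusted p = 0.39 in limma) with all arrays and -0.12 without virgin replicates 2 and 4, and that of Ccnc was -0.24 (adjusted p = 0.38 in limma). Id3, an inhibitor of DNA binding by helix-loop-helix factors, had 9.97, 10.17, 10.05 and 9.78 in parous and 9.75, 9.50, 9.75 and 8.93 in virgin replicates 1 to 4. The groups of Id3 did not overlap, with virgin replicate 4 the lowest, and the fold change was 0.51 (SE 0.19, adjusted p = 0.35 in limma) with all arrays and 0.24 without virgin replicates 2 and 4. The luminal regulator Gata3 had a fold change of 0.11 and the phosphatase Dusp1 one of 0.07, with adjusted p of 0.61 and 0.76 in limma.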

How the data were processed

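RNA of total mammary cell suspensions was hybridised to 8 Mouse Gene 1.0 ST arrays, 4 parous and 4 virgin, each of a separate pool of mice. The deposited log2 values were made by the authors with rma() of the affy package (background correction, quantile normalization, summary per probe set), with the version not given in the sources used here. Precision is limited by the number of arrays. Of 34760 probe sets, 21640 named 1 gene.

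Groups were compared with limma 3.58.1 under R 4.3.3 (lmFit and eBayes, parous minus virgin, no covariate, 2-sided). The Benjamini-Hochberg adjustment ran over the whole table of probe sets. Confidence intervals are at 95%. The exact permutation test covered all 70 splits of the arrays, without pairing. The fit was tested on simulated data. The members and lists were chosen with earlier results of these data known. Values per array were given for members with an unadjusted p under 0.05 and for the highest mean and largest change in each role. They were also given for Jag2, Maml2, Itch, Cdk8 and Id3, which the study takes up in sorted basal cells. Those sorted cells were not analysed here. For Gata3 and Dusp1, also taken up there, only fold changes and adjusted p were given. Pak1, which the study names too, is not among the further genes analysed.

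Alternatives tried were a block for the replicate number, each array left out, virgin replicates 2 and 4 left out together, quantile normalization again, median centring, eBayes with trend and robust estimation, array weights, the methods' t-test, dim probe sets left out, single-gene probe sets only, the probe set with the largest change, no limit on fold change, a mean log2 value over 4 and, added later, scaling to endothelial or pericyte markers.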

Additional observations from a re-analysis of the deposited data

Results flagged for a closer look

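In 5 of the 74 groups of 4 arrays (37 members in parous and in virgin glands), 1 array stood far from the other 3 by Dixon's criterion at 95%, which chance meets in about 1 in 20 groups. Jag2 was 8.26 in parous replicate 4, where the next lowest parous array had 8.91, and Notch4 was 7.85 in the same array, where the next lowest had 8.43. Dtx1 was 8.65 in parous replicate 1, where the next highest parous array had 7.80, and that array had the highest B cell marker mean of its group. Rbpj was 10.51 in virgin replicate 3, where the next highest virgin array had 10.42. Hes6 was 8.03 in virgin replicate 4, where the next lowest had 8.20.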

How the results depend on the processing

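With 4 pools a group the exact permutation test cannot go below 0.029, and all members kept 0 calls under every alternative run. At an adjusted p under 0.05, Numbl was the 1 member past the threshold with dim probe sets left out (adjusted p = 0.041 in limma) or with only probe sets that name 1 gene (adjusted p = 0.048), where fewer probe sets were tested, and its adjusted p with 1 array left out was 0.084 to 0.26. The median of the members was 0.0041 without virgin replicates 2 and 4. Members without overlap numbered 3 with arrays centred on their median and 5 to 8 with 1 array left out, the 8 without virgin replicate 3. Members with an unadjusted p under 0.05 numbered 3 without virgin replicates 2 and 4 (Maml2, Numbl and Hey2) and 3 to 7 with 1 array left out, the 3 without parous replicate 1, virgin replicate 2 or virgin replicate 4. The share of all genes was not counted in these fits or with the replicate number as a block. Groups of fewer arrays also meet non-overlap more easily. The cause of these changes was not tested.

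The replicate number as a block gave 49 called probe sets in all, against 138 without it, 0 called members and 8 members with an unadjusted p under 0.05 (Notch3, Mfng, Maml2, Numbl, Dtx4, Nrarp, Hey1 and Hey2). Deviations of same-numbered arrays from their group means correlated at 0.115, 0.183, -0.0567 and 0.307 for numbers 1 to 4, so the arrays were taken to share only a number, and arrays 2 and 4 but not 1 and 3 correlated best with their own number. The methods' t-test gave 11 called probe sets. With 1 array left out the number was 42 to 179, with 75, 56, 42 and 63 without parous replicates 1 to 4 and 78 without virgin replicate 2.

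Of 785 fold changes of 43 genes under 20 alternatives, 44 changed sign. Without virgin replicates 2 and 4 these were Notch4 (-0.20), Notch2 (-0.021), Dll4 (-0.0022), Dlk2 (0.080), Lfng (-0.24), Mfng (-0.061), Rfng (0.22), Mib2 (-0.036), Psen2 (-0.11), Maml1 (-0.040), Dtx1 (-0.30) and Hes5 (0.018). Array weights gave Dtx3 0.026, Lfng -0.066, Mib2 -0.032 and Rfng 0.040, median centring gave Mib2 -0.0027, and quantile normalization again gave Aph1a 0.0014. Scaling to the endothelial list gave Notch4 -0.036 and Heyl -0.11, and scaling to the pericyte list gave Notch3 -0.11, Notch4 -0.27, Dll4 -0.089 and Heyl -0.34. With 1 array left out the ranges that crossed 0 were -0.056 to 0.0061 for Aph1a, -0.16 to 0.036 for Dlk2, -0.11 to 0.0069 for Dll1, -0.12 to 0.40 for Dtx1, -0.083 to 0.057 for Dtx3, -0.079 to 0.0092 for Hes5, -0.084 to 0.20 for Lfng, -0.013 to 0.11 for Maml1, -0.13 to 0.018 for Maml3, -0.050 to 0.048 for Mib2, -0.077 to 0.34 for Notch4 and -0.17 to 0.087 for Rfng.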
